A study of Mus musculus with 12 samples.

Results

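Toll-like receptors are membrane proteins with which macrophages and microglia recognise molecules of microbes, and CD14 is a co-receptor that binds lipopolysaccharide and hands it to the receptor TLR4. The members described here are Tlr1, Tlr2, Tlr3, Tlr4, Tlr6, Tlr7, Tlr8, Tlr9, Tlr13 and Cd14, taken as the rows with exactly these symbols: 10 of the 24058 genes with a unique symbol. They were measured by poly(A) RNA sequencing in BV2, an immortalised mouse microglia-like cell line. The 12 libraries form 4 groups of 3. In 1 experiment, cells with a transient short hairpin RNA knockdown of Spi1 were set against cells with a scrambled control. In the other, cells with transient overexpression of a mouse Spi1 cDNA were set against cells with an empty control. Spi1 encodes PU.1, an ETS-family transcription factor of the myeloid lineage. All cells were sorted by flow cytometry, and by the labels they had no further treatment. The labels name no microbial ligand in any group. Whether the introduced hairpin and cDNA constructs acted as ligands of the receptors was not tested. The cells are 1 line, and the labels leave out whether libraries of a group are separate cultures. The p-values therefore cover the spread between libraries, which may be technical.

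Each Toll-like receptor has an ectodomain of leucine-rich repeats that binds a ligand and a cytoplasmic TIR domain that recruits adaptors. The surface members work at the plasma membrane: TLR2 pairs with TLR1 or TLR6 to bind bacterial lipopeptides, and TLR4 with its partner MD-2 binds lipopolysaccharide. The endosomal members bind nucleic acids after uptake: TLR3 binds duplex RNA, TLR7 and TLR8 bind RNA or its breakdown products, TLR9 binds DNA with unmethylated CpG and TLR13 binds a stretch of bacterial ribosomal RNA. MYD88 is the adaptor of every one of these receptors except TLR3, which uses TRIF, the product of Ticam1. TLR4 uses both adaptors.

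The values are FPKM, reads divided by gene length and by the reads of the library, so that levels of different genes can be set side by side per length. The reads behind them, recovered from the steps of the values, came to between 22.33 and 33.06 megareads per library. All 11 microglia and macrophage markers examined, among them Aif1, Csf1r, Cd68 and Itgam, were above a mean of 1 FPKM, and their summed level was 2750 to 2970 FPKM in the scrambled controls, 2240 to 2500 in the knockdown, 2470 to 2770 in the empty controls and 2450 to 2720 in the overexpression. Among the markers of other cells, 4 of 5 neuronal markers (Rbfox3, Snap25, Syt1 and Stmn2), Cd3e and Cd3g of T cells and Aqp4 of astrocytes were at 0 in every library. The exceptions above 1 FPKM were Cnp of oligodendrocytes, S100a8 of neutrophils, Kdr of endothelial cells, and Bst2 and Tcf4 of plasmacytoid dendritic cells. The plasmacytoid dendritic cell list summed to 792 to 888 FPKM in the scrambled controls and 861 to 938 in the knockdown. For the endothelial list the sums were 57.3 to 61.7 and 74.3 to 78.9 FPKM. Those of the oligodendrocyte list were 7.35 to 9.4 and 11.5 to 12.4, and of the neutrophil list 2.79 to 5.1 and 1.98 to 2.61. In the same order of lists, the empty controls summed to 649 to 772, 60.9 to 64.2, 8.68 to 12.8 and 2.62 to 4.7 FPKM. The overexpression summed to 649 to 780, 55.4 to 62.0, 7.92 to 12.5 and 3.72 to 5.36 FPKM. The labels give 1 sorted line, so these sums are levels of the listed genes and are not read as other cell types. In bulk libraries, a change in which cells are present and a change of RNA per cell cannot be told apart.

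Spi1 itself was at 159, 169 and 168 FPKM in the scrambled controls and at 50.9, 42.4 and 52.3 FPKM in the knockdown. Its log2 fold change was -1.75 (SE 0.0891, limma, adjusted p = 0.000697). In the other experiment it was at 158, 117 and 131 FPKM with the empty control and at 287, 224 and 206 FPKM in the overexpression, a log2 fold change of 0.81 (SE 0.165). The groups did not overlap in either experiment. Across 11217 genes the rise in the overexpression had an adjusted p of 1 in limma, and of 0.0357 with the library number as a block.

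The promoters of the members were examined for 5 short motifs, because Spi1 was the gene manipulated and its product binds purine-rich sites with the core GAGGAA. RefSeq windows from 250 bases before to 50 after a start site (build GRCm38.p6) were at hand for 7 of the 10 members. Tlr4, Tlr7 and Cd14 had none. Tlr1 and Tlr6 had more windows than the rest, and the shares of all windows given below count windows, not genes. The longer form GAGGAAGT, searched on both strands, was in the windows of Tlr1 and Tlr9, and in 3.20% of all 32851 windows. The core GAGGAA, which lies within the longer form, was in the windows of Tlr1, Tlr9, Tlr13 and Tlr8, and in 28.3% of all windows. The next lines show those stretches 5′ to 3′ on the strand of the gene, as far as they lie outside annotated exons, with the motif in capitals; the second Tlr9 line is the start of its first exon. In Tlr9 after the start and in Tlr8 the motif is on the opposite strand, so its reverse complement stands in capitals.
Tlr1, chr5:64933564-64933708, minus strand, bases -150 to -6: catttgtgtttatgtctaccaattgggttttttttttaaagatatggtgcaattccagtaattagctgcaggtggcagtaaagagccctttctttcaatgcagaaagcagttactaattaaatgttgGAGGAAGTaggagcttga
Tlr9, chr9:106222448-106222597, plus strand, bases -150 to -1: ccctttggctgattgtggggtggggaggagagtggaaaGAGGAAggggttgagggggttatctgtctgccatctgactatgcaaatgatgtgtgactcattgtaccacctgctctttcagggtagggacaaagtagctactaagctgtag
Tlr9, chr9:106222598-106222627, plus strand, bases 1 to 30: tgaaagtgtcACTTCCTCaattctctgaga
Tlr13, chrX:106143125-106143203, plus strand, bases -150 to -72: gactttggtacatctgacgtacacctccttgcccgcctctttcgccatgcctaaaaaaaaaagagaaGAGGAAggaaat
Tlr8, chrX:167264330-167264479, minus strand, bases -150 to -1: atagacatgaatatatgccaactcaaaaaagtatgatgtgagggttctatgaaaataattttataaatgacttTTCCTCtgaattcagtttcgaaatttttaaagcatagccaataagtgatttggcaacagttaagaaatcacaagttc

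The window of Tlr3 held neither form. It was the only member window with an NF-kB-type motif, which 0.411% of all windows held and which lay 211 to 202 bases before the start within an annotated exon.
Tlr3, chr8:45410572-45410601, minus strand, bases -221 to -192: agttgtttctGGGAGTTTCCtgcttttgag
The window of Tlr6 held an interferon-response element core in a pair of overlapping copies on the opposite strand (3.44% of all windows), and that of Tlr9 held the AP-1 site TGACTCA 58 bases before the start (5.20%). No window of Tlr2 held any of the 5. These are matches of letters in a window, and the series holds no binding data on them.

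By GENCODE M21 (mm10), the members are protein-coding genes at separate loci. Tlr1 lies at chr5:64924679-64933563 and Tlr6 beside it at chr5:64952031-64960097, both on the minus strand. Tlr7 (chrX:167304929-167330558) and Tlr8 (chrX:167242696-167264329) are also neighbours on the minus strand, while Tlr13 lies elsewhere on that chromosome (chrX:106143204-106160493, plus strand). Tlr2 is at chr3:83836272-83841767, Tlr4 at chr4:66827584-66930284, Tlr9 at chr9:106222598-106226883 and Tlr3 at chr8:45395665-45411080. Tlr1 and Tlr6 share 259 stretches of 100 bases, the read length, which is 8.85% of those in the Tlr1 transcript and 7.24% of those in Tlr6, so reads from there could have been split, lost or given to either. Exons of Tlr3 are overlapped by Gm45542 on the plus strand, and in libraries that keep no strand, reads of the pair cannot be told apart there. In the longest coding transcript of Tlr3, 18 of 4308 stretches of 100 bases (0.418%) also occur in Gm45542.

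Among the 12 libraries the endosomal receptors made up most of the Toll-like receptor RNA. The median level was 66.1 FPKM for Tlr13 and 48.5 for Tlr7, against 22.5 for Tlr2, 10.2 for Tlr4, 8.58 for Tlr3, 7.37 for Tlr9, 4.98 for Tlr6, 2.92 for Tlr1 and 0.218 for Tlr8. Cd14 stood above all of them at 312 FPKM. Tlr13 alone took 32.9% to 46.6% of the summed FPKM of the 9 receptors in a library, and Tlr7 took 24.1% to 29.6%. The receptors without a place among the members were low or absent: Tlr5 averaged 0.327 FPKM in the scrambled controls, Tlr12 0.0165 FPKM, and Tlr11 had no read in any library, which allows up to 3 reads each and covers counting error only.

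**Figure D1:**
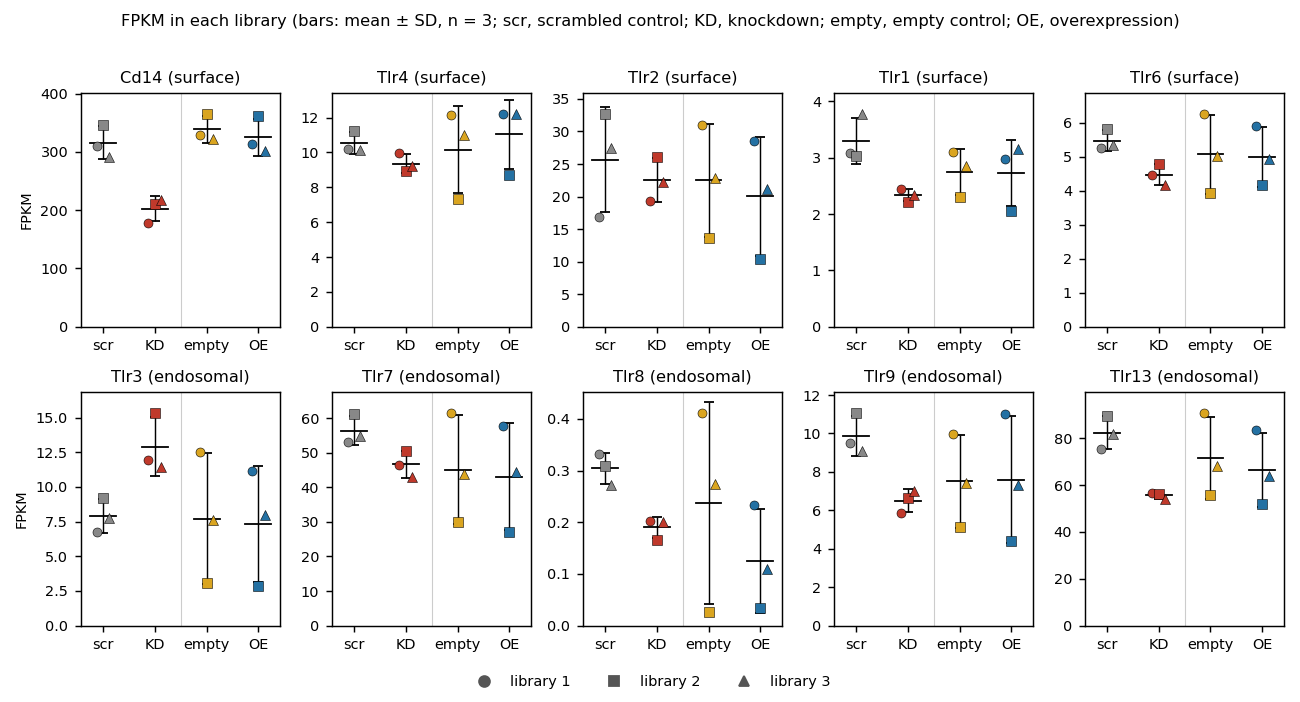
FPKM of each member in each of the 12 libraries, by group, with the group mean and SD (n = 3) and each axis starting at 0. The knockdown libraries of Cd14, at 178 to 218 FPKM, lie below the 6 controls, and the libraries numbered 2 of the overexpression experiment (squares) are the lowest of their group for each receptor but the highest for Cd14.

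In the knockdown, 5 of the 9 members that could be tested were lower and 1 was higher at an adjusted p under 0.05 (limma on log2(FPKM + 1), genes with a mean of 1 FPKM or more; Tlr8 fell below that filter). The 5 were Cd14, Tlr1 and Tlr6 of the surface members and Tlr9 and Tlr13 of the endosomal ones, and the 1 was Tlr3. Of all 11214 genes tested, 8.86% were called lower and 17.4% higher, 26.3% in all. Scaling by the median of ratios moved that split to 13.0% lower and 11.1% higher and called 6 members lower and 1 higher. With the library number as a block, 6 were lower and 1 higher, where 14.7% and 30.6% of all genes were. The median log2 fold change was -0.24 over the 5 surface members and -0.40 over the 4 tested endosomal members, with 0.07 over all genes. Folds on this scale understate the change of genes near the added 1 FPKM, such as Tlr1. The summed macrophage markers were lower in the knockdown as well, and their part in these differences was not tested.

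Cd14 fell by the most FPKM of the members. It was at 311, 346 and 291 FPKM in the scrambled controls and at 178, 211 and 218 in the knockdown, 316 ± 28.1 against 202 ± 21.4 (SD, n = 3). No knockdown library reached the lowest control, and the level was lower within each of the 3 number pairs. The log2 fold change was -0.64 (SE 0.101, adjusted p = 0.00618, limma). Without both libraries numbered 2 it was -0.61 with an adjusted p of 0.0548 in the smaller fit.

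Of the partners of the lipopolysaccharide receptor, Ly96, which encodes MD-2, fell from 10.8 ± 0.371 to 7.40 ± 1.42 FPKM (log2 fold change -0.50, SE 0.124, adjusted p = 0.0246, limma). Tlr4 itself was at 10.2, 11.2 and 10.1 FPKM in the scrambled controls and at 9.95, 8.93 and 9.19 in the knockdown. Those groups did not overlap either, but the difference was small: the log2 fold change was -0.15 with a 95% interval from -0.32 to 0.01 (limma adjusted p = 0.146). On the recovered reads limma-voom gave Tlr4 -0.24 and an adjusted p of 0.0395, which is a call. Cd14 stood at 30.5, 30.8 and 28.7 times the level of Tlr4 with the scrambled control and at 17.9, 23.7 and 23.7 times with the knockdown.

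The lipopeptide receptors did not move alike. Tlr2, the subunit that both heterodimers share, was at 16.9, 32.6 and 27.4 FPKM in the scrambled controls and at 19.3, 26.1 and 22.2 in the knockdown, where every knockdown library lay within the range of the controls. Its log2 fold change of -0.14 had an interval from -0.67 to 0.39 (limma adjusted p = 0.670), so a change of either sign was within the spread. Tlr1 was at 3.09, 3.04 and 3.77 FPKM in the controls and at 2.44, 2.22 and 2.34 in the knockdown (log2 fold change -0.36, SE 0.0810, adjusted p = 0.0183, limma). Tlr6 was at 5.27, 5.82 and 5.34 FPKM and at 4.47, 4.79 and 4.17 (log2 fold change -0.24, SE 0.0702, adjusted p = 0.0409, limma). For both, all knockdown libraries were below all controls. The limma call of Tlr1 was lost without knockdown library 2 (adjusted p = 0.0594) or 3 (0.0597), and that of Tlr6 without any 1 of the 6 libraries (adjusted p from 0.0548 to 0.134).

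Among the endosomal members, Tlr13 had the most uniform knockdown level. It was at 75.4, 89.5 and 81.8 FPKM in the scrambled controls and at 56.5, 56.3 and 54.0 in the knockdown, 82.2 ± 7.05 against 55.6 ± 1.37 (SD, n = 3). The log2 fold change was -0.55 (SE 0.0764, adjusted p = 0.00421, limma). Tlr9 was at 9.48, 11.1 and 9.09 FPKM and at 5.84, 6.67 and 7.02, a log2 fold change of -0.53 (SE 0.0935, adjusted p = 0.00862, limma). The groups of both genes were apart. Without both libraries numbered 2 the limma call of Tlr9 was lost (adjusted p = 0.0634), and that of Tlr13 was not (0.0482).

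Tlr7 went the same way by a smaller step. It was at 53.2, 61.2 and 54.9 FPKM in the scrambled controls and at 46.5, 50.5 and 42.9 in the knockdown, again without overlap. The log2 fold change of -0.27 (SE 0.0854) had an adjusted p of 0.0537 in limma, just past the threshold. With the library number as a block the adjusted p was 0.0128, which is a call, as it was with median-of-ratios scaling (0.0237) and in limma-voom (0.00995).

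Tlr8 was near the limit of detection. It had 27, 24 and 21 reads in the scrambled controls and 17, 14 and 21 in the knockdown, 0.305 ± 0.0299 against 0.190 ± 0.0206 FPKM (SD, n = 3). The exact Poisson intervals, which cover counting error only, overlapped between the groups, for example 0.219 to 0.483 FPKM in control library 1 and 0.118 to 0.324 in knockdown library 1. When no filter on low values was set, limma called Tlr8 lower, with a log2 fold change of -0.13 (SE 0.0298, adjusted p = 0.0416).

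Tlr3, the receptor that signals without MYD88, was the only member that rose. It was at 6.76, 9.20 and 7.75 FPKM in the scrambled controls and at 11.9, 15.3 and 11.5 in the knockdown, 7.90 ± 1.23 against 12.9 ± 2.10 (SD, n = 3). Every knockdown library was above every control, and the level was higher in all 3 number pairs. The log2 fold change was 0.64 (SE 0.134, adjusted p = 0.0147, limma). Against the 17.4% of genes called higher, 1 riser among 9 members is no more than the background. When the spread was estimated over all 12 libraries, the limma adjusted p of Tlr3 was 0.370, and the calls of Tlr9 (0.203), Tlr6 (0.266), Tlr1 (0.0741) and Tlr13 (0.0671) were lost as well. That spread includes the overexpression experiment, where the SD of Tlr3 was 4.73 FPKM in the empty controls and 4.17 in the overexpression. The SE of its knockdown fold change was 0.445 in that fit.

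By ranges alone, the knockdown libraries of 8 of the 10 members were all below their controls, against 15.1% of all genes tested. Those of Tlr3 were all above (30.3% of genes), and those of Tlr2 overlapped. Tlr8 is counted among the 8, although it fell below the filter that the genes behind those shares passed.

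**Figure D2:**
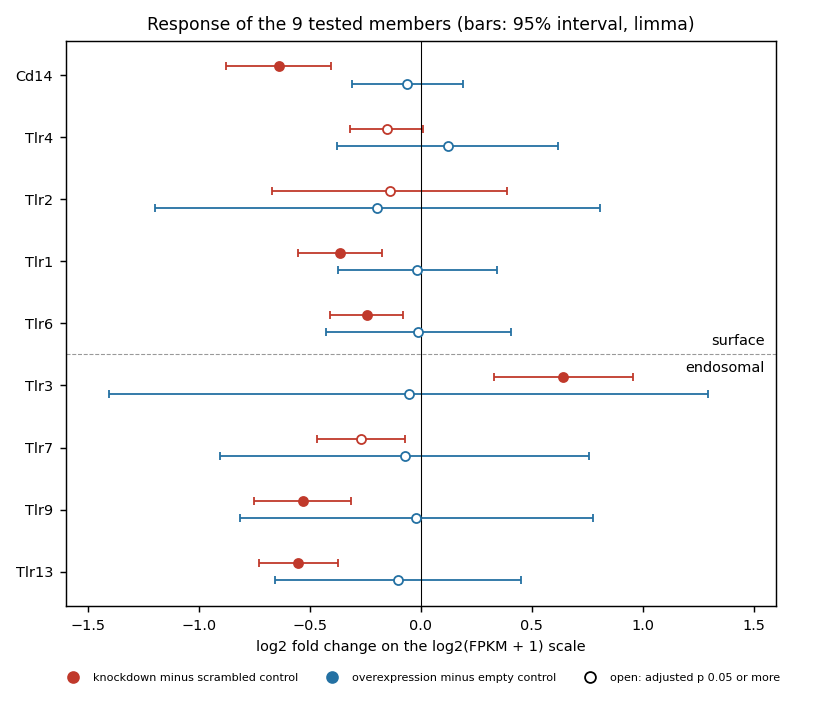
Log2 fold changes of the 9 tested members on the log2(FPKM + 1) scale with 95% intervals from limma, surface members above the dashed line; filled points have an adjusted p under 0.05. The knockdown points run from -0.64 for Cd14 to 0.64 for Tlr3, while each overexpression interval includes 0.

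As classes, surface and endosomal receptors kept nearly the same proportion. The 4 surface receptors without Cd14 summed to 44.9 ± 8.80 FPKM in the scrambled controls and 38.7 ± 3.05 in the knockdown, and these groups overlapped. The 5 endosomal receptors summed to 157 ± 13.3 and 122 ± 6.72 FPKM (SD, n = 3), and these did not. The endosomal share of the receptor FPKM was 77.9 ± 2.20% in the scrambled controls, 75.9 ± 0.946% in the knockdown, 76.6 ± 1.12% in the empty controls and 76.3 ± 1.25% in the overexpression, with overlap between every pair. The joint share of Tlr7 and Tlr13 among all 9 receptors was lower in the knockdown. Together they held 71.2%, 67.3% and 68.2% of the receptor FPKM in the scrambled controls. In the knockdown, where Tlr3 was higher, they held 65.5%, 62.4% and 63.1%. As calls, 3 of 5 surface members and 2 of 4 tested endosomal members were lower. These sums describe a list chosen for its function and were not tested.

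**Figure D3:**
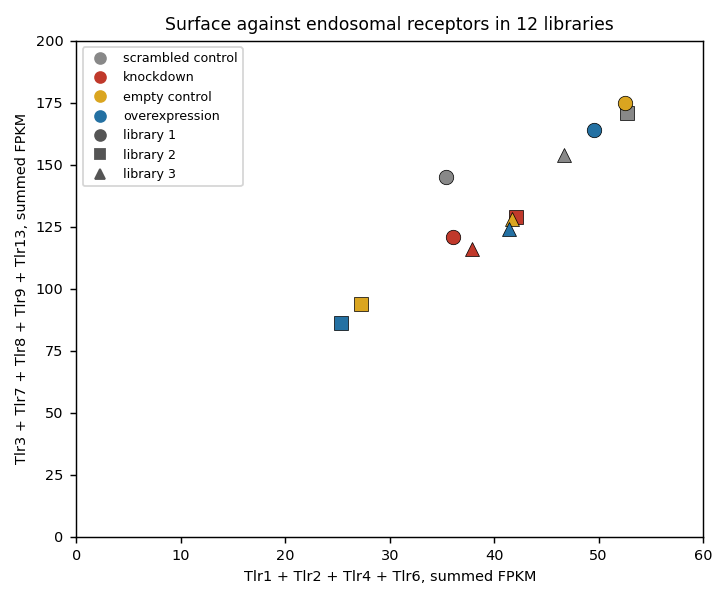
Summed FPKM of the 5 endosomal receptors against that of the 4 surface receptors in each of the 12 libraries, both axes from 0. The libraries numbered 2 of the overexpression experiment lie lowest, at 25.3 and 27.3 FPKM on the surface axis, and the knockdown libraries lie between 116 and 129 FPKM on the endosomal axis.

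In the overexpression no member was called against the empty control. No gene of 11217 was called by limma (0.0%), while 122 had an unadjusted p under 0.05. With the library number as a block 13 genes were called (0.116%), Spi1 among them and no member. In that blocked fit 1577 genes had an unadjusted p under 0.05. Its intervals for Tlr2 (-0.36 to -0.03) and Tlr13 (-0.20 to -0.01) were wholly negative, and those of the other tested members held both signs. The ranges of the overexpression and the empty control overlapped for all 10 members. Of all genes tested, 1.66% had all overexpression libraries above and 2.40% all below. The median log2 fold change was -0.02 over the surface members, -0.06 over the tested endosomal members and -0.01 over all genes.

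Cd14 was at 329, 365 and 322 FPKM with the empty control and at 313, 361 and 301 in the overexpression (log2 fold change -0.06, 95% interval -0.31 to 0.19). Tlr13 was at 90.7, 55.9 and 68.2 FPKM and at 83.5, 52.0 and 63.9, a log2 fold change of -0.10 (interval -0.66 to 0.45). Tlr7 was at 61.5, 29.9 and 44.0 FPKM and at 57.8, 26.9 and 44.3. The ranges of each of the 3 genes overlapped with and without the added Spi1 cDNA. Within the number pairs, Tlr13 and Cd14 were lower in 3 of 3. With the number as a block the interval of Tlr13 was -0.20 to -0.01 (limma adjusted p = 0.327) and that of Cd14 -0.16 to 0.04 (0.559).

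Tlr3 was at 12.5, 3.04 and 7.61 FPKM with the empty control and at 11.1, 2.86 and 7.96 in the overexpression. Its fold change was -0.06 with the widest interval of the members, from -1.40 to 1.29 on the log2 scale. With the library number as a block that interval shrank to -0.19 to 0.08. Tlr9 was at 9.98, 5.11 and 7.43 FPKM and at 11.0, 4.43 and 7.31. Tlr8 had 29, 2 and 24 reads in the empty controls and 22, 3 and 10 in the overexpression.

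Of the surface receptors, Tlr4 was at 12.2, 7.35 and 11.0 FPKM with the empty control and at 12.2, 8.72 and 12.2 in the overexpression. It was the only member that was higher in each of the 3 number pairs, by 0.00, 0.22 and 0.14 on the log2 scale (blocked limma adjusted p = 0.399). Tlr2 was at 31.0, 13.7 and 22.8 FPKM and at 28.6, 10.4 and 21.1, lower in each pair (blocked limma adjusted p = 0.311). Tlr1 was at 3.09, 2.30 and 2.86 FPKM and at 2.98, 2.06 and 3.15, and Tlr6 at 6.25, 3.94 and 5.03 and at 5.90, 4.16 and 4.93.

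The libraries numbered 2 stood apart in that experiment. For all 9 receptors, library 2 was the lowest of its group both in the empty control and in the overexpression, and for Cd14 it was the highest in both. Of all 11217 genes, 45.9% were lowest in both libraries numbered 2 and 23.6% highest in both. The mean of libraries 1 and 3 exceeded library 2 by 3.30 times (empty control) and 3.34 times (overexpression) for Tlr3. The same ratios were 1.97 and 2.40 for Tlr2, 1.76 and 1.90 for Tlr7, 1.70 and 2.07 for Tlr9 and 1.42 and 1.42 for Tlr13. Tlr1 gave 1.29 and 1.49, Tlr4 1.57 and 1.40, and Tlr6 1.43 and 1.30. As ratios, the step between libraries of 1 group was thus larger than the step between the group means of either experiment for Tlr2, Tlr3, Tlr4, Tlr6, Tlr7 and Tlr9. For Tlr1 this held in the overexpression only, and for Tlr13 it did not hold. In the knockdown experiment library 2 was the highest of its group for Tlr2, Tlr3, Tlr6 and Tlr7 in both groups. It was the lowest in both groups for Tlr1. Of all genes there, 24.1% were highest in both libraries numbered 2 and 20.9% lowest in both. The labels do not say what a library number stands for.

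**Figure D4:**
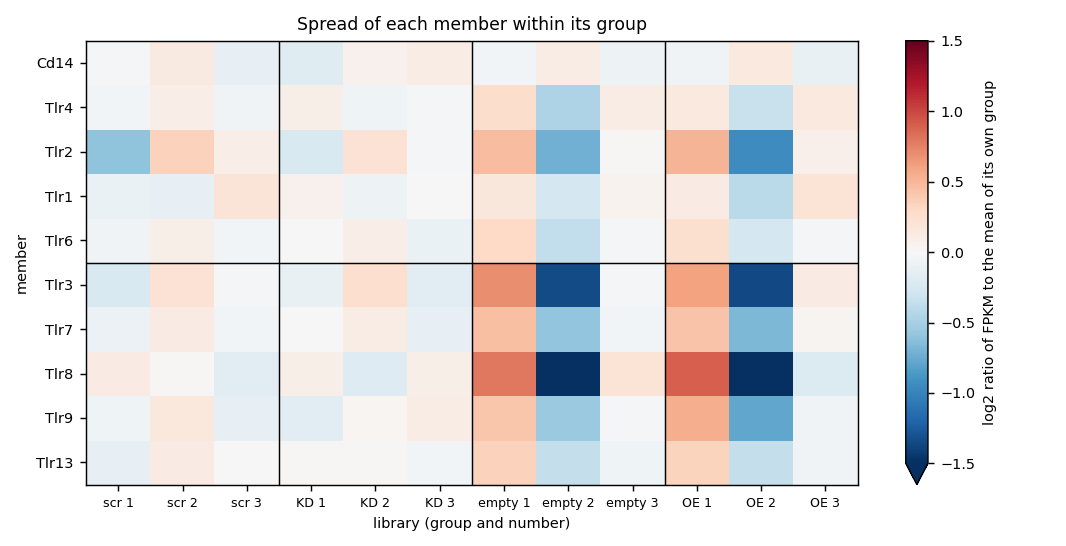
Each library's FPKM relative to the mean of its own group, as a log2 ratio, for the 10 members (rows) in the 12 libraries (columns); the scale stops at -1.5. The 9 receptors are blue (low) in both libraries numbered 2 of the overexpression experiment, and Cd14 is not.

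The response to overexpression was tested against the response to knockdown in 1 fit over the 12 libraries. The treatments move Spi1 in opposite directions, so a gene that follows Spi1 has a difference by design. Spi1 itself had 2.56 (adjusted p = 0.000331, limma). Where the overexpression fold change is near 0, the difference is close to the knockdown fold change with its sign turned, from the same libraries. No member passed, with 4.84% of 11224 genes called by limma. Cd14 came nearest: its log2 fold change was 0.58 higher in the overexpression experiment (SE 0.149, adjusted p = 0.0516). With the library number as a block in each experiment, 7 of the 9 tested members passed, where 41.5% of all genes did (12.9% higher and 28.6% lower). They were Cd14 (adjusted p = 0.00481), Tlr4 (0.0442), Tlr1 (0.0198), Tlr6 (0.0197), Tlr9 (0.0106) and Tlr13 (0.00372), each with the higher fold change in the overexpression, and Tlr3 with a difference of -0.70 (0.00148). Tlr7 (0.0517) and Tlr2 (0.782) did not pass.

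The group means of Spi1 rose from the knockdown through the empty control and the scrambled control to the overexpression. Only Tlr4 had its means in the same order (9.36, 10.2, 10.5 and 11.0 FPKM), and each neighbouring pair of groups overlapped. The lowest mean was that of the knockdown for Cd14, Tlr1, Tlr4, Tlr6, Tlr9 and Tlr13, but the highest was that of the scrambled or the empty control for each of these except Tlr4. Only for Cd14 was the knockdown apart from its next group in that order. For Tlr3 the knockdown was highest and apart from the scrambled control, yet empty control library 1, at 12.5 FPKM, reached its range. The scrambled controls averaged 9.88 FPKM of Tlr9 and the empty controls 7.51, and for 8 of the 9 tested members the scrambled mean was above the empty mean on the log2 scale, Cd14 being the exception. Over all genes this held for 4586 of 11214. The log2 difference of the knockdown from the empty controls was -0.74 for Cd14 and -0.33 for Tlr13, but 0.10 for Tlr7. Both control groups belong to different experiments, and their difference was not tested.

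Genes that act with the receptors were examined in 6 lists, of which 65 genes passed the filter. In the knockdown, 16 of the 65 were lower and 4 higher by limma, where 8.86% and 17.4% of all genes were, with a median log2 fold change of -0.08. With the library number as a block 25 were lower and 8 higher (14.7% and 30.6% of all genes), and with median-of-ratios scaling 20 and 1 (13.0% and 11.1%). Lists with 1 or 2 calls in a direction in the first fit lie near or below its shares. In the overexpression no gene of the lists was called.

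Ligand handling and co-receptors had 3 of 8 tested genes lower and 1 higher. Itgam, the alpha chain of complement receptor CR3, fell from 189 ± 19.4 to 86.5 ± 13.2 FPKM (log2 fold change -1.12, adjusted p = 0.00270, limma), and Itgb2, its beta chain, by 0.61 on the log2 scale. Hmgb1, a nuclear protein that can act as a ligand when released, rose from 29.9 ± 1.61 to 47.5 ± 3.53 FPKM. Ly96 is described above.

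Folding, trafficking and processing of the receptors had 4 of 12 genes lower and 1 higher. Unc93b1, the chaperone that carries the nucleic acid receptors to endosomes, went from 180 ± 13.6 to 144 ± 4.94 FPKM (log2 fold change -0.32, SE 0.0746, adjusted p = 0.0202, limma). Ctss, a lysosomal protease that can cleave endosomal receptors, went from 708 ± 24.0 to 512 ± 49.3 FPKM. 5430435G22Rik, the symbol in these data for Rab7b, a small GTPase of late endosomes, went from 59.4 ± 1.24 to 42.1 ± 3.65 FPKM, and Slc15a3, a transporter of the endosomal membrane, from 337 ± 35.6 to 259 ± 9.46. The gene that rose was Cnpy4, which was named after its value was seen, by 0.30 on the log2 scale; with median-of-ratios scaling no gene of this list was called higher.

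Of 5 tested adaptors, 3 fell and none rose. Pik3ap1, which links the receptors to phosphoinositide kinase, went from 370 ± 21.1 to 216 ± 6.31 FPKM (log2 fold change -0.77, adjusted p = 0.00148, limma). Ticam2, the bridge from TLR4 to TRIF, changed by -0.42 and Ticam1 by -0.31. Myd88 was at 41.5 ± 7.46 FPKM in the scrambled controls and 42.3 ± 5.74 in the knockdown, a log2 difference of 0.03 (SE 0.146). Tlr3 thus rose while the RNA of its adaptor Ticam1 fell.

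Among 18 kinases and ubiquitin ligases 4 were lower and none higher: Peli1 (-0.64), Syk (-0.58), Tab3 (-0.41) and Map3k8 (-0.22). The last had an adjusted p of 0.0497 in limma, at the edge of the threshold. Of 12 transcription factors 1 was called in this fit, Rel, which fell by 0.41 on the log2 scale. With median-of-ratios scaling 2 were lower, and with the library number as a block 2 were lower and 2 higher. Of 10 inhibitors, Sigirr (0.27) and Rnf216 (0.22) rose and Dusp1 (-0.39) fell; the rises of both were lost with median-of-ratios scaling, which called no inhibitor higher.

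**Figure D5:**
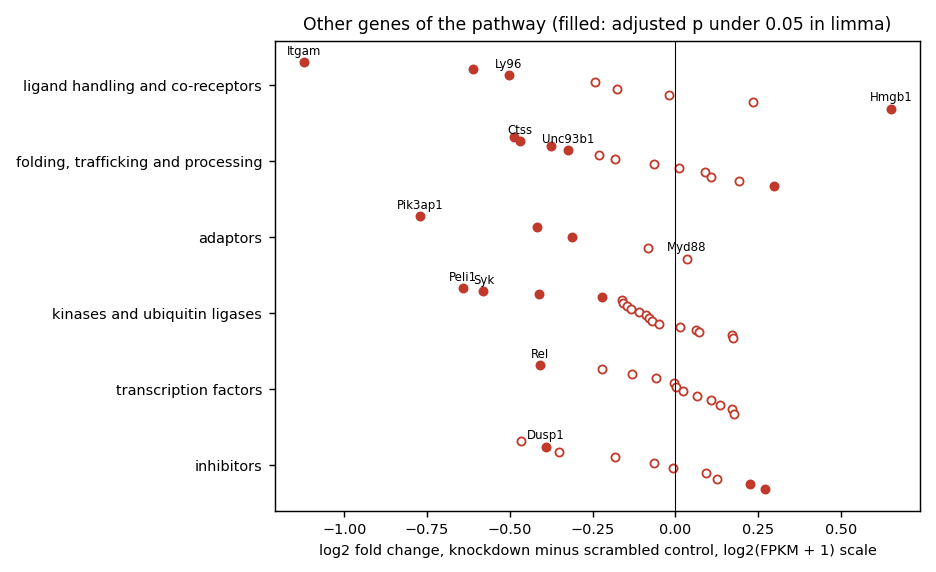
Log2 fold changes in the knockdown of the 65 tested genes of the 6 pathway lists on the log2(FPKM + 1) scale; filled points have an adjusted p under 0.05 in limma. The values run from -1.12 for Itgam to 0.65 for Hmgb1, and the 18 kinases and ubiquitin ligases include no filled point above 0.

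In the test of the 2 responses against each other, 5 of these 65 genes passed without the block, all with the higher fold change in the overexpression, as 1.90% of all genes did: Itgam (difference 1.20, adjusted p = 0.00386, limma), Pik3ap1 (1.09), Ctss (0.52), 5430435G22Rik (0.45) and Tab3 (0.43). The difference for Cd14, 0.58, lay among these in size.

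For the 6 members called in the knockdown, the genes with the most similar profile over the 12 libraries were found among 11112 genes by the root mean square difference of log2(FPKM + 1) centred on each gene's mean. Cd14 was nearest to Mfsd8 (0.105) and Cyb5r1 (0.109), where Cd14's own spread about its mean was 0.319. Tlr13 was nearest to Sppl2a (0.0600) and Atp6v0d1 (0.0681), Tlr9 to Tmem251 (0.110) and Fes (0.124), Tlr1 to Hdgfrp3 (0.0649) and Pbxip1 (0.0708), and Tlr6 to Ankfy1 (0.0476) and Morc3 (0.0489). Tlr3 was nearest to Ube2l6 (0.188) and Gbp7 (0.232), the largest differences of these pairs, but its own spread of 0.623 was also the largest. The own spreads were 0.285 for Tlr13, 0.361 for Tlr9, 0.184 for Tlr1 and 0.171 for Tlr6. The differences are not scaled by them, so they do not rank how close the matches are. All points share the 12 libraries and their numbering, so these likenesses are descriptions of these libraries.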

How the data were processed

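The authors deposited normalised gene values of the 12 libraries in 2 tables, 1 per experiment, with no unit in the headers. The deposited values were read as FPKM, that is, reads per gene which the authors had normalised by gene length and library total, since all 17838 genes above 0 came out as whole reads within 0.01. STAR 2.5.2a, featureCounts, CASAVA 1.8.2 and bcl2fastq stand in the submitters' processing notes without a role for each, with build mm10. Which annotation and strand option were used is not stated there. Per the labels' protocols, reads were single-end of 100 bases.

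Each experiment was tested with limma 3.58.1 (R 4.3.3) on log2(FPKM + 1) for genes averaging 1 FPKM or more in its libraries, with Benjamini-Hochberg adjustment over all genes tested and a threshold of 0.05. The difference of responses used 1 fit of the 4 group means. The fits were run on simulated data with known changes and independent libraries. Those data held no likeness between libraries of the same number, so they did not test the block on data like these. Libraries with the same number deviated from their group means together, with correlations of 0.397, 0.540 and 0.345 in the knockdown experiment and 0.791, 0.845 and 0.513 in the other, so fits with the number as a block were also run. Other alternatives were a pseudocount of 0.1 FPKM, no filter, median-of-ratios scaling, trend and robust options, limma-voom on recovered reads, 1 fit over 12 libraries, and leaving out libraries. The 4 entries with repeated symbols were left out. The named pathway genes are up to 4 called genes per list with the smallest p, with Unc93b1, Ly96 and Myd88 always; Cnpy4 was added after its value was seen. The members and lists were chosen with earlier results of these data known.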

Additional observations from a re-analysis of the deposited data

Results flagged for a closer look

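The responses of 7 members differed between the experiments in the limma fit with the library number as a block, by a test of the difference itself (the log2 fold change of the overexpression minus that of the knockdown). The differences were 0.58 for Cd14, 0.27 for Tlr4, 0.35 for Tlr1, 0.23 for Tlr6, 0.51 for Tlr9 and 0.45 for Tlr13, and -0.70 for Tlr3. In that fit 41.5% of all genes passed, and without the block none of the 7 did. The treatments move Spi1 in opposite directions, and Spi1 itself had a difference of 2.56. Except for Tlr4, each difference mostly repeats the knockdown fold change with its sign turned, so it is not a separate result. Tlr4 had log2 fold changes of 0.12 in the overexpression and -0.15 in the knockdown.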

How the results depend on the processing

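No member call turned its direction under the 15 alternatives tried for the knockdown. With 5 of 9 members lower and 1 higher, the number of members called was 1 with all 12 libraries in 1 fit (Cd14), 2 without both libraries numbered 2 (chosen after seeing the data; Tlr3 and Tlr13) and 4 to 5 with 1 library left out. The replicate block changed no member call in the knockdown or the overexpression except that of Tlr7. Over all genes the knockdown calls were 5081 with the replicate block, 4701 with the block and median-of-ratios scaling, 1624 over 12 libraries, 449 without the number 2 libraries and 1458 to 2206 with 1 library left out. For the pathway lists these were 33, 36, 12, 4 and 11 to 15. The surface median was -0.31 with median-of-ratios scaling (also with the block), -0.37 in limma-voom and -0.40 to -0.20 with 1 library left out. The endosomal median was -0.27 without the filter, where Tlr8 enters, and -0.49 in limma-voom. In the overexpression the blocked fits called 13 genes, and 12 with median-of-ratios scaling. Its surface median was -0.0482 without the number 2 libraries and -0.10 to 0.12 with 1 left out, and its endosomal median -0.31 to 0.25. The difference of responses called 4658 genes with the block, 4108 with block and scaling, 80 without the number 2 libraries and 109 to 575 with 1 left out; members called were 7, 8, none and 0 to 1, and 1 in limma-voom. Before the start site only, 1 member window held GAGGAAGT.

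Signs turned as follows; the cause was not tested. No fit called any of these differences except that of Tlr7 between the responses (adjusted p = 0.0102 in limma with block and median-of-ratios scaling). With 1 library left out, Tlr2 ranged from -0.40 to 0.0525 in the knockdown. In the overexpression the ranges were -0.10 to 0.12 for Tlr1, -0.50 to 0.19 for Tlr2, -0.0759 to 0.27 for Tlr4, -0.15 to 0.12 for Tlr6, -0.53 to 0.42 for Tlr3, -0.33 to 0.22 for Tlr7, -0.30 to 0.27 for Tlr9 and -0.28 to 0.0779 for Tlr13. Without the number 2 libraries Tlr1 was 0.0318 and Tlr9 0.0556, and in limma-voom Tlr6 was 0.0102. In the difference of responses Tlr2 was 0.0325 with median-of-ratios scaling, with or without the block, 0.0369 in limma-voom and -0.36 to 0.33 with 1 left out, and Tlr7 -0.0626 to 0.49. Without the block, the overexpression intervals for Tlr2, Tlr3, Tlr4, Tlr6, Tlr7 and Tlr9 include changes of either sign larger than those in the knockdown. With the block the intervals were -0.19 to 0.08 for Tlr3 and -0.36 to -0.03 for Tlr2.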
